A study of Mus musculus with 24 samples.

Results

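The interleukins and interleukin receptors of mouse fat are described here, as the protein-coding genes whose GENCODE GRCm38 symbol begins with Il and a digit. This rule found 82 genes among 49585 gene identifiers listed, of which 21734 were protein-coding, and it used no measured value. By role, 36 members are ligands and 46 are receptors, coreceptors, antagonists, decoys or an enzyme. The study sequenced RNA in 24 libraries of 6 groups, each made from whole fat of male mice of the strain C57BL/6J. In the experiment of 20 weeks, wild-type mice received a low-fat diet (10% of energy from fat, 4 libraries) or a high-fat diet (60%, 4 libraries), and subcutaneous adipose tissue (SAT) was taken. In the experiment of 8 weeks, every group received the high-fat diet, and Azin2-/- mice, which lack antizyme inhibitor 2, a regulator of polyamine synthesis, were set beside wild-type littermates. It gave 5 wild-type and 3 Azin2-/- libraries of SAT and 4 wild-type and 4 Azin2-/- libraries of epigonadal adipose tissue (GAT). Age, the design of the Azin2 allele and whether libraries were pooled from several animals were not given in the sources used here. Where nothing says that libraries came from separate animals, the p-values measure the spread between these libraries.

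Interleukins are secreted signals, mostly made and read by immune and stromal cells, and each acts through a receptor of several chains that is often shared with relatives. Their reach is limited by soluble antagonists, by decoy receptors that bind without signalling, and by shared chains that one cytokine can occupy at the expense of another. In fat, they are best known from the macrophages that gather in obesity, from the IL-33 and IL-13 axis of lean tissue and from IL-6 type signalling in adipocytes.

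Of the members, Il1rn and Il7r were called both with diet and in Azin2-/- GAT, and Il1rl2 was called between depots, between genotypes in GAT and between durations, so the bases before their RefSeq start sites are shown. Il1rn encodes the IL-1 receptor antagonist, Il7r the alpha chain of the IL-7 receptor, and Il1rl2 the receptor of the IL-36 cytokines. The sequences are RefSeq's, on build GRCm38.p6, 5′ to 3′ on the strand of the gene, and were cut to the bases that lie outside GENCODE exons. That leaves 243 bases for Il1rn (chr2:24336610-24336852, plus strand), 164 for Il7r (chr15:9529877-9530040, minus strand) and 250 for Il1rl2 (chr1:40324339-40324588, plus strand). The GENCODE gene of Il7r starts further upstream, at base 9530176. The Il7r stretch therefore lies inside that gene, outside its exons, and is upstream only of the RefSeq start. Capitals mark a match to one of 4 motifs searched on both strands: GAGGAAG (PU.1), TGANTCA (AP-1), GGGA and TTCC with 2 free bases between (NF-kappaB) and TTCNNNGAA (STAT).
Il1rn: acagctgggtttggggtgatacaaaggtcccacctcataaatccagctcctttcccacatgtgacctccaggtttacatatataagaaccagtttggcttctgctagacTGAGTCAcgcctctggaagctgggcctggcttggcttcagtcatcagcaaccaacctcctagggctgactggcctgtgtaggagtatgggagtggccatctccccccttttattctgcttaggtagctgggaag
Il7r: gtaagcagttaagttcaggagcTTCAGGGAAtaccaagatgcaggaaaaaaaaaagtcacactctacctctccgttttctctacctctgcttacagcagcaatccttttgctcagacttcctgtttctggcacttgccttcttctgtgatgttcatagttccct
Il1rl2: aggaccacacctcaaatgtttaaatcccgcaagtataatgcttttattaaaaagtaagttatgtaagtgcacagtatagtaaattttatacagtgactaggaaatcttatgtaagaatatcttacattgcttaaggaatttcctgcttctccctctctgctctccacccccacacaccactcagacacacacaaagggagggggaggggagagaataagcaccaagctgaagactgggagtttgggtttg
The Il1rn window held 1 match, to AP-1, whose first base lies 141 bases before the start, and the Il7r window held 1 match, to STAT, 142 bases before it. The Il1rl2 window held none of the 4 letter strings. Over all 32536 RefSeq windows of 250 bases, 6.73% held the AP-1 string and 7.04% the STAT string. Promoter entries were found for 65 of the 82 members, which gave 80 windows. Of these, 17.5% held AP-1, 10.0% STAT, 10.0% PU.1 (10.7% of all windows) and 3.75% NF-kappaB (1.21% of all windows). A match is a string of letters, not a bound site.

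Whole-library facts that touch the members were few. Libraries held 31.96 to 46.62 M counted reads, and the members together took 666.9 to 1250.7 CPM (counts scaled to equal library totals). Adipoq, the adipocyte hormone adiponectin, lay between 762.9 and 3182.1 CPM in every library. Azin2 itself was at 6.73 to 11.5 CPM in the 3 Azin2-/- SAT libraries, against 14.6 to 26.0 in wild-type SAT, and at 12.7 to 19.8 in Azin2-/- GAT, against 22.9 to 26.6 in wild-type GAT. Within each depot the Azin2-/- libraries were thus all lower than the wild-type ones, and reads at the locus remained. Some libraries stood apart. The library labelled low-fat SAT replicate 1 went against its label: its 7 epididymis markers summed to 21953.2 CPM, against at most 0.677 in the other 3 low-fat libraries, and its subcutaneous factors Hoxc10 and Tbx15 summed to 0.164 CPM, against 47.9 to 65.6. Wild-type GAT replicate 3 also held epididymis markers (3335.4 CPM), and skeletal muscle markers were high in wild-type SAT replicate 3 (47736.7 CPM), Azin2-/- SAT replicate 2 (53753.5), low-fat replicate 5 (17463.6) and 20-week high-fat replicate 6 (5311.0), against at most 869.6 in the other libraries. The counts of the diet comparison and the diet values of most members and lists named are therefore also given without low-fat replicate 1.

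Far more of the member reads came from receptors and modulators than from ligands. Of the 36 ligands, 17 had fewer than 10 counts in every library and 7 reached 1 normalised CPM (CPM scaled by TMM factors, a correction for library composition) in every library. Of the 46 receptors and modulators, 6 had fewer than 10 counts in every library and 27 reached 1 normalised CPM in every library. Receptors and modulators took 91.3% of all member reads and ligands 8.65%, with no correction for the length of the transcripts. In all, 7 members had 0 counts in the 24 libraries, 13 had fewer than 3 counts in each library, and 59 had at least 10 counts in some library. Those with 0 counts were Il9, Il17a, Il22, Il1f6, Il1f10, Il1rapl2 and Il11ra2, the last a near copy of Il11ra1, between which the counting could divide reads. A single library detected 57 to 70 members.

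The most abundant member per length was Il6st, the signal chain shared by the IL-6 family (gp130), at a mean of 29.1 normalised CPM per kilobase of exon, with libraries from 13.5 to 37.9. It alone took 32.8% of the member reads. Il17rc, a chain of the IL-17 receptor, followed at 14.3 per kilobase, then Il11ra1, the IL-11 receptor, at 14.2. Il34, a ligand of the macrophage growth factor receptor Csf1r, reached 13.3 per kilobase and was the most abundant ligand. The next were Il10rb (11.0), the chain shared by the IL-10 family, Il4ra (10.4), the receptor of IL-4 and IL-13, Il15ra (8.43), which presents IL-15, and Il3ra (8.24), the IL-3 receptor. Among ligands of these receptors, Il10 was in place 40 of the 82 by this mean, Il13 in place 49, Il4 in place 52 and Il6 in place 55. Il6 never passed 13 counts in a library and entered no test, and Il4 and Il5 never passed 8 and 6 counts.

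**Figure D1:**
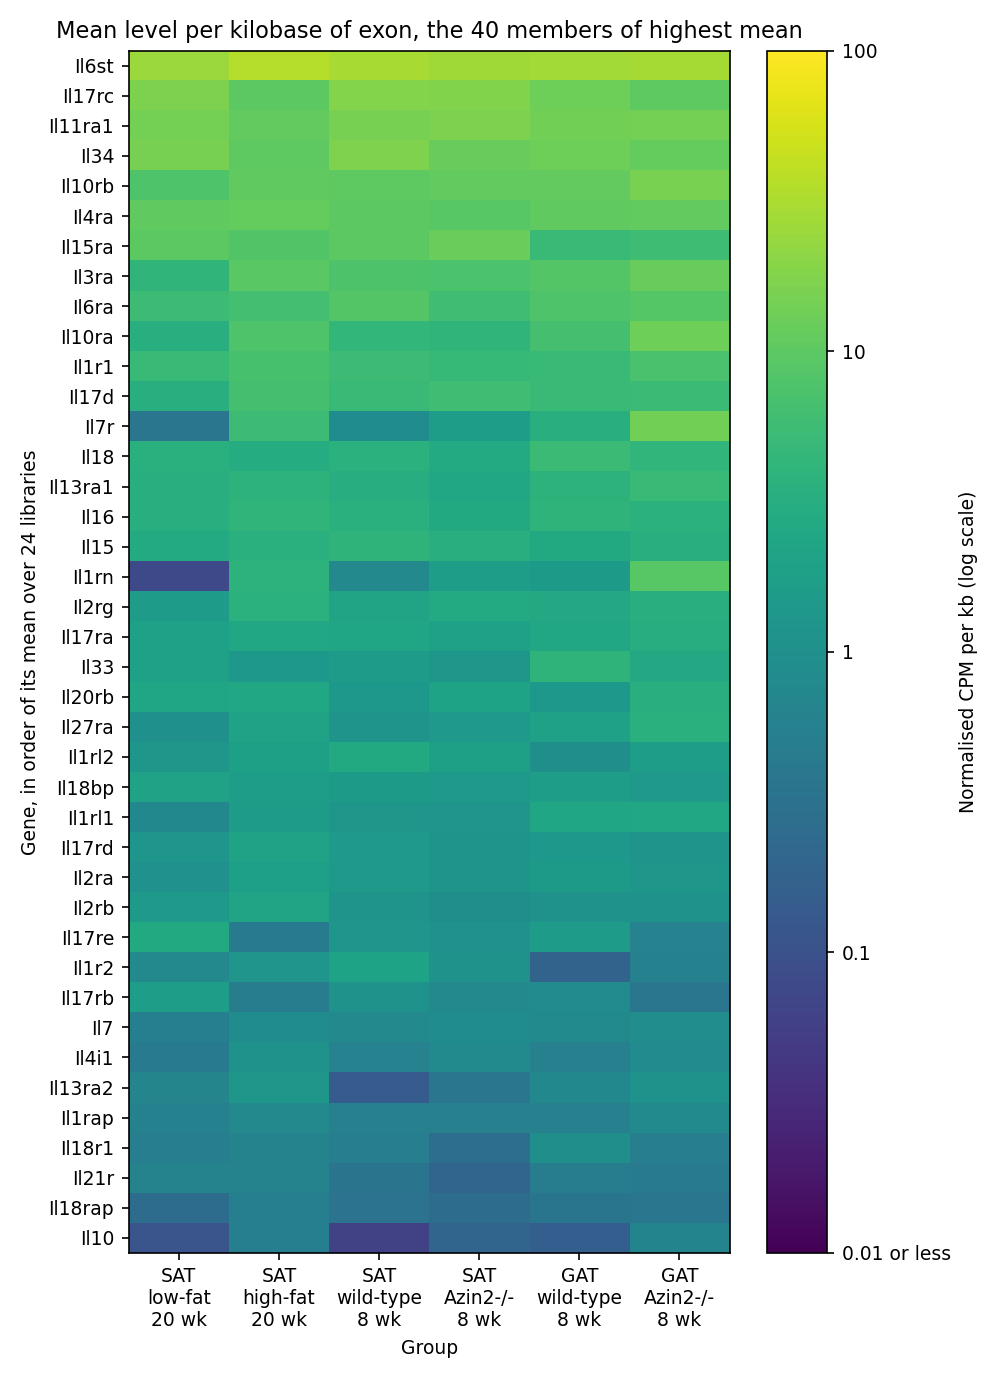
Mean level per kilobase of exon (colour, normalised CPM per kb on a log scale) of the 40 members of highest mean, one line per gene and one column per group. Il6st is highest in all 6 groups, and Il1rn and Il7r are dark (low) in low-fat SAT and light in Azin2-/- GAT.

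Diet was the first comparison: SAT after 20 weeks of high-fat against low-fat feeding. The IL-1 receptor antagonist Il1rn and the IL-7 receptor Il7r rose most, by log2 fold changes of 5.65 (SE 0.612) and 3.82 (SE 0.251), or 50.4-fold and 14.1-fold. The IL-10 receptor Il10ra, the common gamma chain Il2rg and the IL-33 receptor Il1rl1 also rose. The IL-17 receptor chains Il17re and Il17rb and the ligand Il34 fell. With edgeR's quasi-likelihood test and Benjamini-Hochberg adjustment over all genes, 15 of the 45 tested members were called at adjusted p under 0.05, 12 higher and 3 lower, beside 21.2% of all 17066 tested genes (10.8% higher, 10.4% lower). The median log2 fold change was 0.39 over the members and -0.09 over all tested genes.

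Without low-fat replicate 1, 32 of 45 members were called, 26 higher and 6 lower, including all 15 of the first count, beside 47.0% of all genes (23.5% higher, 23.5% lower). The members' median was then 0.41, and that of all genes -0.017. Leaving out 1 of the other libraries gave fewer calls: 7 without high-fat replicate 3, 4 or 6, 8 without high-fat replicate 5, 9 without low-fat replicate 3, and 10 or 12 without low-fat replicate 5 or 6, beside 10.3% to 16.9% of all genes. Il7r, Il1rn, Il10ra, Il4i1, Il10rb, Il12rb2 and Il17re were called with any 1 of the 8 libraries left out. The call was lost without 7 of the 8 in turn for Il1rl1, Il17d and Il18rap, without 6 for Il3ra, Il1r1 and Il17rb, without 5 for Il2rg and without 3 for Il34.

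Of the 10 ligands tested with diet, 1 rose and 1 fell, beside 21.2% of all genes called. Il17d, a member of the IL-17 family, was at 1.91, 5.52, 4.62 and 5.01 normalised CPM in low-fat SAT and 8.23, 7.84, 7.95 and 9.14 in high-fat SAT (log2 fold change 0.94, SE 0.277, adjusted p = 0.0486 by edgeR). Il34 went the other way, with 30.1, 35.6, 24.9 and 28.7 in low-fat and 18.2, 18.5, 23.7 and 18.2 in high-fat libraries (-0.66, SE 0.144, adjusted p = 0.0173 by edgeR). In both genes the groups did not overlap. Without low-fat replicate 1 the log2 fold changes were 0.71 and -0.60, and both were called. With any other single library left out, Il17d was not called.

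Other ligands depended on low-fat replicate 1 or did not pass. Il33, the alarmin that sustains type 2 cells, was at 15.8 normalised CPM in that library and at 2.08, 1.42 and 2.95 in the other low-fat libraries, against 4.86, 3.42, 3.37 and 4.08 in high-fat SAT. Its log2 fold change was -0.63 (adjusted p = 0.58) with that library and 0.86 (adjusted p = 0.027) without it, so the direction turned. Il1b, the inflammatory cytokine that Il1rn opposes, changed from 0.34 (adjusted p = 0.695) to 1.16 (adjusted p = 0.0499), at no more than 41 counts in any library. Il10, an anti-inflammatory cytokine, had a log2 fold change of 2.15 (adjusted p = 0.0625) with it and 1.96 (adjusted p = 0.0447) without, and 3.46 (adjusted p = 0.00345) without low-fat replicate 6, the highest of its group, at 0.0273 to 0.422 against 0.531 to 0.805 normalised CPM. Il15, which supports natural killer and memory T cells, had 0.31 (adjusted p = 0.423) with low-fat replicate 1 and 0.09 (adjusted p = 0.517) without.

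Of the 35 receptors and modulators tested with diet, 11 rose and 2 fell, beside the same 21.2% of all genes. Il7r was at 1.83, 1.17, 2.19 and 1.74 normalised CPM in low-fat SAT and at 21.9, 30.2, 29.8 and 19.8 in high-fat SAT (adjusted p = 0.000622 by edgeR). Il10ra, the ligand-binding chain for IL-10, was at 7.48, 11.0, 13.8 and 13.1 against 28.9, 31.9, 25.0 and 24.1 (log2 fold change 1.24, SE 0.173, adjusted p = 0.00328). Every high-fat library was above every low-fat library in both genes. Other rises were called for Il12rb2 (1.78), an IL-12 receptor chain at no more than 1.18 normalised CPM in these libraries, for Il3ra (1.17), Il2rg (1.16), Il1rl1 (1.05) and Il18rap (1.00), an IL-18 receptor chain, and for Il1r1 (0.44), the signalling IL-1 receptor, and Il10rb (0.39). Without low-fat replicate 1 the log2 fold changes were 3.90 for Il7r, 1.12 for Il10ra, 1.88 for Il12rb2, 0.94 for Il3ra, 0.96 for Il2rg, 0.82 for Il1rl1 and Il18rap, 0.33 for Il1r1 and 0.39 for Il10rb, and each was called. Il4i1, an enzyme that breaks down phenylalanine, rose by 1.26 (1.15 without that library), but 3423 of its exon bases overlap Tbc1d17 on the other strand and the strand setting of the counting was not given. The same holds for Il12rb2, with 1519 bases shared with Serbp1.

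The IL-17 receptor family moved unevenly with diet. Il17re, the chain for IL-17C, was at 11.0, 22.6, 14.7 and 14.5 normalised CPM in low-fat and 2.16, 1.55, 3.44 and 3.19 in high-fat SAT (log2 fold change -2.64, SE 0.31, adjusted p = 0.00187 by edgeR), and the change was -2.74 without low-fat replicate 1. Il17rb, the chain for IL-25, was at 14.0, 4.0, 4.02 and 3.2 against 2.0, 1.87, 1.95 and 1.57, a change of -1.87 with that library and -1.02 without it. Neither gene's groups overlapped. Il17rc had a log2 fold change of -0.98 without that library, where it was called, and the broadly expressed chain Il17ra one of 0.29, also called only then.

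The antagonist Il1rn was nearly silent in low-fat SAT, at 0.0831, 0.333, 0.355 and 0.893 normalised CPM, and at 21.1, 25.1, 23.0 and 16.2 in high-fat SAT (adjusted p = 0.0015 by edgeR). Its log2 fold change lay between 5.31 (without low-fat replicate 1) and 6.36 (without low-fat replicate 6) with 1 library left out. The lowest low-fat value rests on 4 reads. Among the decoys, Il13ra2, which binds IL-13, was at 4.59 in low-fat replicate 1, at 0.444, 0.300 and 0.745 in the other 3, and at 3.15, 3.07, 2.90 and 2.82 in high-fat SAT, and its log2 fold change was 0.83 (adjusted p = 0.508) with that library and 2.57 (adjusted p = 0.000269) without. Il1r2, the decoy for IL-1, had 0.69 (adjusted p = 0.566) and, without that library, 0.28 (adjusted p = 0.465). Il18bp, which binds IL-18, was at 5.63 to 6.38 normalised CPM in low-fat and 4.64 to 5.73 in high-fat SAT.

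Il20rb, a chain of the IL-20 family receptors, shows the weight of that library most plainly. It was at 27.3 normalised CPM in low-fat replicate 1 and at 4.19, 3.66 and 4.32 in the other low-fat libraries, against 12.6, 11.3, 8.37 and 8.95 in high-fat SAT. The log2 fold change was -0.07 (adjusted p = 0.953 by edgeR) with it and 1.34 (SE 0.169, adjusted p = 0.000371) without. Il4ra was also highest there, with 104.5 against 46.9 to 54.7 in the other low-fat libraries and 65.4 to 68.4 in high-fat SAT, so that it went from 0.00 (adjusted p = 0.992) to 0.41 (adjusted p = 0.00123). Il6st, at 149.7 against 310.5 to 331.1, went from 0.49 (adjusted p = 0.14) to 0.30 (adjusted p = 0.00458). Il1rl2 was at 6.71, 9.35, 10.1 and 9.93 in low-fat and 11.6, 10.1, 16.7 and 13.6 in high-fat SAT, with 0.49 (adjusted p = 0.0821), or 0.40 (adjusted p = 0.0604) without that library; the groups met without overlapping.

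**Figure D2:**
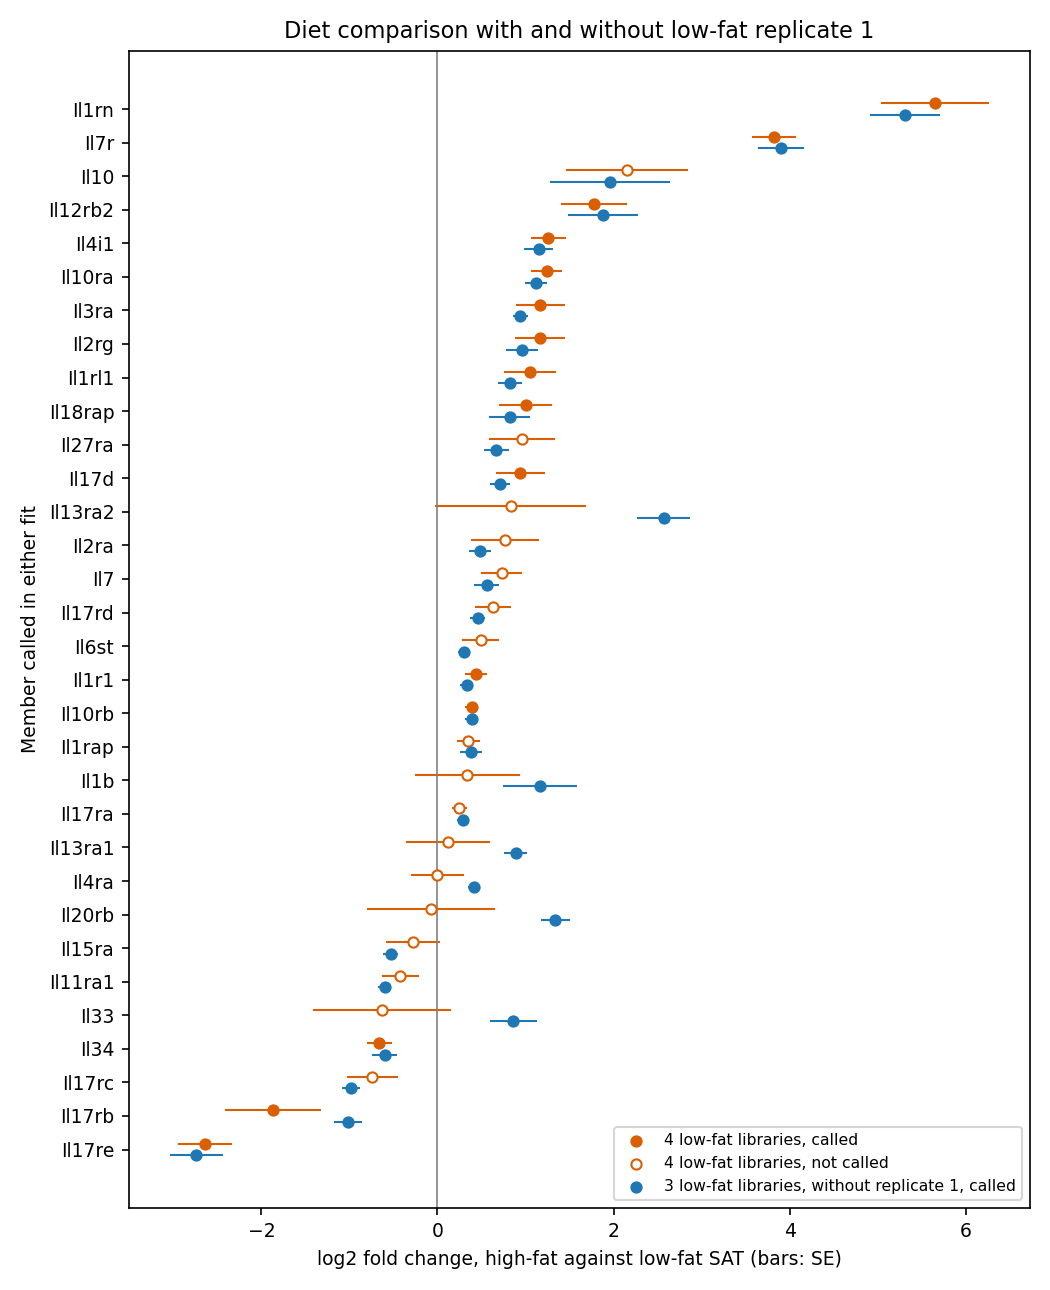
log2 fold change with SE (bars) of high-fat against low-fat SAT for the 32 members called in either fit, with all 4 low-fat libraries (orange) and without low-fat replicate 1 (blue); filled points were called. Il1rn, Il7r and Il17re hardly move between the fits, and Il20rb and Il33 cross 0.

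Leukocyte markers moved with diet. The 8 macrophage markers, of which none was at 0 in every library of a group, summed to 340.9 to 579.9 CPM in low-fat and 1505.9 to 1895.6 in high-fat SAT, and 5 markers of lipid-associated macrophages (Trem2, Gpnmb, Cd9, Itgax and Spp1) to 66.9 to 241.9 and 511.6 to 759.1. With Lpl, which this list first also held, it summed to 4686.0 to 12281.2 and 13199.7 to 14516.0 CPM. The 8 T cell markers overlapped, at 9.52 to 24.1 and 14.6 to 23.9 CPM. The other leukocyte sums were higher in every high-fat than in every low-fat library: 7 mast cell markers at 36.8 to 49.5 and 70.7 to 86.0 CPM, 6 neutrophil markers at 3.63 to 5.18 and 10.3 to 17.8 (Ly6g at 0 in the high-fat group), 7 B cell markers at 3.2 to 5.87 and 9.05 to 12.4, and 4 eosinophil markers at 0.141 to 0.677 and 1.29 to 2.49 (Epx at 0 in both groups). The part of these cells in the rise of the members called was not tested. In whole tissue, more cells of a type and more RNA per cell cannot be told apart.

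**Figure D3:**
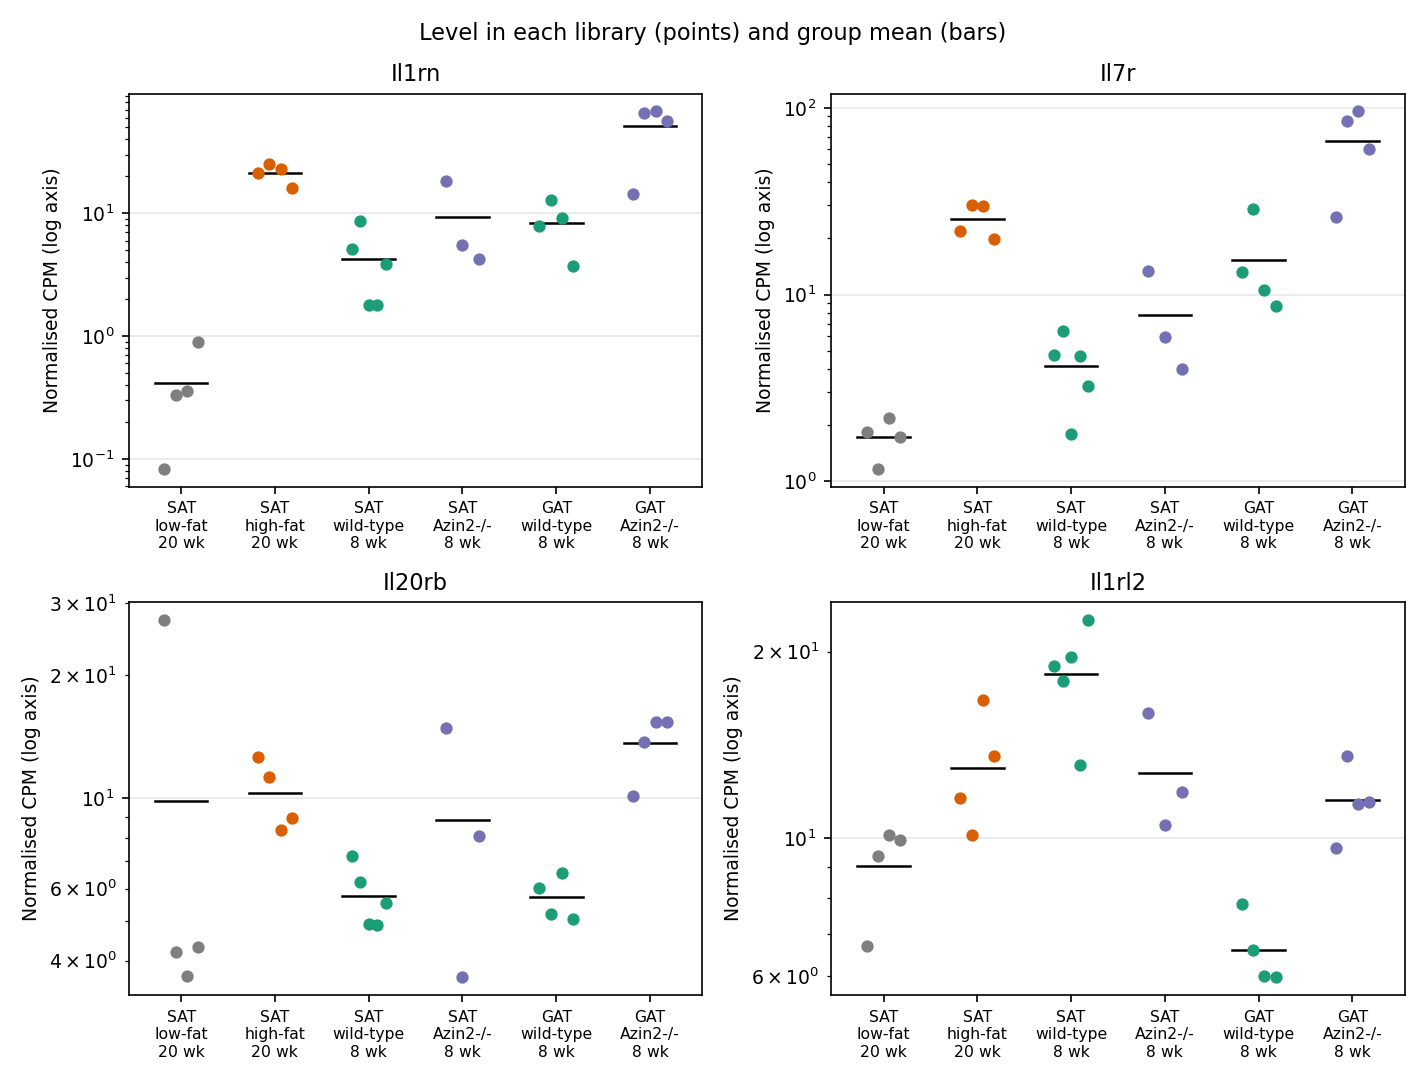
Level of Il1rn, Il7r, Il20rb and Il1rl2 in each library (points, normalised CPM on a log axis) and the mean of each group (bars). Il1rn and Il7r are lowest in low-fat SAT and highest in Azin2-/- GAT, the 27.3 of low-fat replicate 1 stands alone for Il20rb, and Il1rl2 is highest in wild-type SAT and lowest in wild-type GAT.

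Duration was compared between wild-type SAT after 20 and after 8 weeks of high-fat diet, which came from separate experiments, so duration, age and experiment cannot be told apart. This comparison shares the 20-week high-fat libraries with the diet comparison. Il13ra2, Il10, Il7r and Il1rn were higher at 20 weeks, and Il17re, Il17rb, Il17rc, Il34 and Il11ra1 lower. With edgeR, 26 of 45 tested members were called, 19 higher and 7 lower, beside 39.0% of all genes (19.6% higher, 19.5% lower). The median was 0.31 over members and -0.039 over all tested genes.

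Il13ra2 had the smallest p of these: it was at 0.238, 0.415, 0.203, 0.367 and 0.421 normalised CPM after 8 weeks and at 2.82 to 3.15 after 20 (log2 fold change 3.17, SE 0.23, adjusted p = 2.66e-05 by edgeR). Among ligands, Il10 was at 0 to 0.166 after 8 weeks and 0.531 to 0.805 after 20 (3.05, SE 0.483, adjusted p = 0.00103), and Il34 at 27.7 to 39.9 against 18.2 to 23.7 (-0.74, adjusted p = 0.00155). The groups did not overlap in any of these. Il33, Il1b, Il15 and Il1rl1 were not called (-0.26, 0.71, -0.19 and 0.23). Il7r had 2.60 (adjusted p = 0.0004), Il1rn 2.32 (adjusted p = 0.00542), and Il20rb 0.84 (adjusted p = 0.00267). Other rises were called for Il12rb1 (1.04), an IL-12 receptor chain, Il4i1 (0.93), Il10ra (0.82), Il2rg (0.72), the IL-1 coreceptor Il1rap (0.48), Il6st (0.27) and Il4ra (0.21). Falls were called for Il17re (-1.51), Il17rb (-1.19), Il17rc (-0.89), Il1rl2 (-0.50), the IL-6 receptor Il6ra (-0.43) and Il11ra1 (-0.41). The call for Il1rl2 was lost without 7 of the 9 libraries in turn, and that for Il17rb without high-fat replicate 6. The macrophage markers summed to 557.0 to 1119.0 CPM after 8 weeks, below every 20-week library, and their part was not tested.

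Between depots, wild-type GAT was compared with wild-type SAT after 8 weeks of high-fat diet. GAT held far less of the IL-1 decoy Il1r2 and of the IL-36 receptor Il1rl2, less Il15 and Il15ra, and more Il33, Il18r1 and Il7r. With edgeR, 8 of 46 tested members were called, 3 higher and 5 lower in GAT, beside 4.33% of all genes (2.47% higher, 1.87% lower). The median was 0.13 over members and -0.006 over all tested genes.

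Il1r2 was at 3.59, 2.16, 6.80, 1.33 and 5.78 normalised CPM in SAT and at 0.462, 0.253, 0.398 and 0.309 in GAT (log2 fold change -3.44, SE 0.518, adjusted p = 0.00846). Il1rl2 was at 19.0, 17.9, 19.6, 13.1 and 22.5 in SAT and at 7.84, 6.6, 5.99 and 5.96 in GAT (-1.47, SE 0.162, adjusted p = 0.00227). The groups lay apart in both genes, and both calls held without any of the 9 libraries in turn. None of the other calls held so. With 1 of the 9 libraries left out, Il33 and Il18r1 were called in 2 fits, Il17rc in 3, Il7r in 4, and Il15 and Il15ra in 6. The count fell to 2 without wild-type GAT replicate 2 or SAT replicate 5, to 3 without GAT replicate 4, to 4 without SAT replicate 1 and to 5 without SAT replicate 2, beside 1.71% to 3.86% of all genes. Il15ra (-0.90) and its partner Il15 (-0.54), which Il15ra carries to the cell surface, both fell, and Il17rc fell by 0.51 on the log2 scale. Il33 was at 6.04, 4.52, 3.50, 5.14 and 4.37 in SAT and 6.20, 10.5, 11.5 and 17.2 in GAT (1.28, SE 0.27, adjusted p = 0.0302), with no overlap. Il18r1, the ligand-binding chain for IL-18, rose by 0.93 and Il7r by 1.88. Il20rb did not differ beyond its spread (0.00, adjusted p = 0.999), nor did Il1rn (0.99, adjusted p = 0.291), Il1rl1 (0.79, adjusted p = 0.0798), Il4ra (0.12), Il6st (-0.10), Il34 (-0.34) or Il1b (0.46), and Il10 was too low to be tested.

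Mesothelium markers (5 genes) summed to 52.5 to 469.6 CPM in wild-type GAT and 1.27 to 3.45 in SAT, and macrophage markers to 1054.4 to 1603.7 and 557.0 to 1119.0. Mesothelial cells cover visceral fat and are a known source of Il33. In wild-type GAT replicates 1 to 4, the mesothelium sums were 52.5, 442.9, 267.3 and 469.6 CPM, and Il33 was at 6.20, 10.5, 11.5 and 17.2 normalised CPM. The part of these cells was not tested. With the mark of the title as a block (3 marks found in both depots), no member and 0.0% of all genes was called by edgeR, and 16 members had an unadjusted p under 0.05. The labels do not say that equal marks are one animal.

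In Azin2-/- mice, the same comparison gave 14 calls among 48 tested members, 12 higher and 2 lower in GAT, beside 15.2% of all genes (9.13% higher, 6.04% lower). The median was 0.54 over members and -0.031 over all tested genes. Il7r led, at 13.3, 5.92 and 3.97 normalised CPM in SAT and 26.2, 84.5, 95.7 and 60.3 in GAT (log2 fold change 3.09, SE 0.585, adjusted p = 0.0219 by edgeR). Il10ra was at 17.4, 13.4 and 13.4 against 25.3, 50.8, 53.4 and 51.4 (1.61, adjusted p = 0.0189). Neither gene's depots overlapped. The other rises were Il12rb2 (1.64), Il31ra (1.54), a receptor of IL-31, Il27ra (1.32), the IL-27 receptor, Il1rl1 (1.00), Il13ra1 (0.96), an IL-13 receptor chain, Il18r1 (0.89), Il17ra (0.66), Il6ra (0.57), Il10rb (0.53) and the chemoattractant Il16 (0.41), and Il15ra (-1.12) and Il17rc (-0.78) fell.

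Il1rl2 and Il1r2, the leading falls of wild-type mice, were not called between the depots of Azin2-/- mice (-0.16, adjusted p = 0.562, and -0.96, adjusted p = 0.223). Nor were Il20rb (0.61), Il1rn (2.43, adjusted p = 0.06), Il10 (1.61), Il33 (0.99), Il1b (0.68), Il4ra (0.25), Il6st (0.10), Il15 (0.00) or Il34 (-0.08). The count rests on few libraries: it was 0 without GAT replicate 2 or SAT replicate 3, and 1 without GAT replicate 3 or 4, beside 0.217% to 1.67% of all genes. With the mark as a block (2 marks found in both depots) it was 7, beside 5.34%. Macrophage markers summed to 567.3 to 1163.5 CPM in Azin2-/- SAT and 1934.7 to 4023.1 in Azin2-/- GAT, and their part was not tested.

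Genotype in GAT compared Azin2-/- with wild-type littermates. The antagonist Il1rn, the IL-7 receptor, the decoy Il1r2, Il20rb and Il1rl2 rose in Azin2-/- GAT, and the IL-18 receptor Il18r1 fell. With edgeR, 6 of 48 tested members were called, 5 higher and 1 lower, beside 6.77% of all genes (5.45% higher, 1.32% lower), and none of the 10 tested ligands was among them. The median was 0.10 over members and -0.035 over all tested genes. This comparison shares no library with the diet comparison, and the members called in both were Il1rn and Il7r, 13.3% of the 15 and 33.3% of the 6. With diet, 21.2% of all genes were called. The share of all genes called in both was not computed, so this overlap is not read as particular to the members.

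Il1rn was at 7.84, 12.9, 9.18 and 3.74 normalised CPM in wild-type and 14.2, 65.7, 67.6 and 56.3 in Azin2-/- GAT (log2 fold change 2.57, SE 0.523, adjusted p = 0.0408 by edgeR). The groups did not overlap, though the first Azin2-/- library lay near the highest wild-type one. Il7r was at 13.2, 28.7, 10.6 and 8.69 in wild-type and 26.2, 84.5, 95.7 and 60.3 in Azin2-/- GAT (2.10, SE 0.482, adjusted p = 0.0426), with the first Azin2-/- library inside the wild-type range. Il1r2 was at 0.462, 0.253, 0.398 and 0.309 against 0.477, 1.57, 1.03 and 1.36 (1.60, SE 0.385, adjusted p = 0.0465). Here too the first Azin2-/- library was close to the wild-type ones.

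Il20rb was at 6.03, 5.21, 6.55 and 5.06 normalised CPM in wild-type GAT and at 10.1, 13.7, 15.3 and 15.3 in Azin2-/- GAT (log2 fold change 1.23, SE 0.161, adjusted p = 0.0408 by edgeR). Il1rl2 was at 7.84, 6.6, 5.99 and 5.96 against 9.63, 13.6, 11.4 and 11.5 (0.78, SE 0.137, adjusted p = 0.0408). Il18r1 was at 5.0, 3.56, 4.24 and 6.02 against 2.97, 2.62, 2.0 and 2.39 (-0.93, SE 0.206, adjusted p = 0.0411). In these 3 genes every Azin2-/- library was on one side of every wild-type library, the first included. Members that did not pass included Il10 (1.98, adjusted p = 0.0788), Il10ra (0.97, adjusted p = 0.0529), Il33 (-0.61, adjusted p = 0.26), Il34 (-0.24), Il15 (0.24), Il1b (0.24), Il1rl1 (0.08), Il4ra (0.06) and Il6st (0.02).

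These calls lie just under the threshold, and each was lost without at least 5 of the 8 libraries in turn. Without Azin2-/- GAT replicate 1, 13 of 49 members were called (26.5%, beside 15.7% of all genes), among them all 6 above and Il10ra (1.16) and Il10 (2.29). Without wild-type replicate 3, which held epididymis markers, 6 of 49 members were called (12.2%, beside 7.94% of all genes). They included 4 of the 6 above, and the calls for Il7r and Il1r2 were lost. Without Azin2-/- replicate 2, 3 or 4, or wild-type replicate 2 or 4, no member and at most 0.00585% of all genes was called by edgeR, at 14 to 16 members with an unadjusted p under 0.05, while DESeq2 on all 8 libraries called 13 (18.9% of all genes). The log2 fold change kept its sign in all 8 cases for the 6 genes, from 2.32 to 2.87 for Il1rn, 1.87 to 2.59 for Il7r, 1.16 to 1.34 for Il20rb, 0.69 to 0.87 for Il1rl2, 1.39 to 1.85 for Il1r2 and -1.04 to -0.80 for Il18r1.

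Macrophage markers summed to 1054.4 to 1603.7 CPM in wild-type and 1934.7, 3436.8, 4023.1 and 2979.5 in the 4 Azin2-/- GAT libraries, and the 5 lipid-associated markers to 166.1 to 668.5 and 644.7 to 2105.2, lowest in the first Azin2-/- library. That library was thus lowest of its group in both sums, in Il1rn, in Il7r and in Il10ra (25.3, against 50.8 to 53.4). The lipid-associated list first also held Lpl. With Lpl, it summed to 11666.3 to 13723.1 CPM in wild-type and 14808.4, 13823.0, 14451.4 and 13892.8 in Azin2-/- GAT. The first Azin2-/- library was then the highest of its group. The 8 T cell markers summed to 13.5 to 23.1 CPM in wild-type and 10.8 to 14.1 in Azin2-/- GAT. Neutrophil markers summed to 7.22 to 8.1 and 14.3 to 30.3 CPM (Ly6g at 0 in wild-type GAT), B cell markers to 11.2 to 32.7 and 5.36 to 8.68, and neither overlapped. Mesothelium markers were at 52.5 to 469.6 and 25.1 to 127.7. The part of these cells in the genotype difference was not tested.

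Genotype in SAT gave no call among 46 tested members by edgeR, beside 0.0059% of all genes (1 of 16948). By unadjusted p under 0.05 there were 7 members, the smallest adjusted p was 0.256, and DESeq2 called 2, Il18r1 and Il6ra, both lower (1.84% of all genes). The median was -0.19 over members and 0.007 over all tested genes. Il18r1 was at 2.09, 2.51, 2.14, 3.36 and 2.35 normalised CPM in wild-type and 1.36, 1.2 and 1.47 in Azin2-/- SAT, a log2 fold change of -0.90 (SE 0.215) beside the -0.93 of GAT, and the groups did not overlap in either depot. The next by p were Il6ra (-0.56, adjusted p = 0.299) and Il34 (-0.51, adjusted p = 0.305). Il34 was at 31.0, 29.3, 27.7, 39.9 and 36.8 in wild-type and 21.7, 22.5 and 25.7 in Azin2-/- SAT, again without overlap. Groups that do not overlap were found for 6 of the 46 members, beside 7.26% of all tested genes.

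The genes that led in GAT did not pass in SAT. Il1rn was at 5.14, 8.74, 1.79, 1.78 and 3.85 normalised CPM in wild-type and 18.3, 5.50 and 4.28 in Azin2-/- SAT (1.13, adjusted p = 0.58), and Il7r at 4.73, 6.37, 1.79, 4.69 and 3.25 against 13.3, 5.92 and 3.97 (0.89, adjusted p = 0.548). In both genes 1 Azin2-/- library was high and the other 2 lay within the wild-type range, and this library also had the highest macrophage sum of its group (1163.5 CPM against 567.3 and 581.4). Il20rb was at 7.21, 6.25, 4.92, 4.89 and 5.54 against 14.9, 3.64 and 8.06 (0.61, adjusted p = 0.599), and Il1rl2 at 19.0, 17.9, 19.6, 13.1 and 22.5 against 15.9, 10.5 and 11.9 (-0.54, adjusted p = 0.429). Il6st (-0.18), Il15 (-0.30), Il33 (-0.33), Il1rl1 (-0.13), Il4ra (-0.07) and Il1b (0.02) were not called either, and Il10 was too low to be tested. Without the muscle-rich wild-type replicate 3 and Azin2-/- replicate 2, the count was again 0, with 10 members at an unadjusted p under 0.05.

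Whether the genotype difference itself differed between depots was tested as an interaction over the 16 libraries. No member of 50 tested and no gene of 18033 was called by edgeR (0.0% of all genes), with 8 members at an unadjusted p under 0.05. Il1rl2 had the smallest p of the members (8.86e-05): the genotype differences, 0.78 in GAT and -0.54 in SAT, lay on opposite sides of 0, with a log2 interaction of 1.32 (SE 0.247, edgeR adjusted p = 0.312). DESeq2 called it (1.31, adjusted p = 0.00169) together with Il15 (0.54, adjusted p = 0.0361), beside 1.1% of all genes, and edgeR called it without Azin2-/- GAT replicate 1 (1.39, adjusted p = 0.0325). The next members were Il15 (0.55, adjusted p = 0.312) and Il6ra (0.70, adjusted p = 0.325). For Il7r the interaction was 1.23 (adjusted p = 0.54), for Il1rn 1.45 (adjusted p = 0.561), for Il20rb 0.62 (adjusted p = 0.597), and for Il18r1 -0.03 (adjusted p = 0.975). Il1r2 had 2.49 (edgeR adjusted p = 0.325). A different effect of genotype in the 2 depots was therefore not shown by edgeR on the 16 libraries for any member, Il1rl2 included.

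Across the 6 groups, Il7r was highest in Azin2-/- GAT (mean 66.7 normalised CPM, SD 30.7, n = 4), then 20-week high-fat SAT (25.4, SD 5.35, n = 4), wild-type GAT (15.3, SD 9.10, n = 4), Azin2-/- SAT (7.74, SD 4.93, n = 3), wild-type SAT (4.17, SD 1.73, n = 5) and low-fat SAT (1.73, SD 0.423, n = 4). Each neighbouring pair in this order overlapped. Il1rl2 had another order, with wild-type SAT first (18.4, SD 3.42), then 20-week high-fat SAT (13.0, SD 2.84), Azin2-/- SAT (12.8, SD 2.83), Azin2-/- GAT (11.5, SD 1.62), low-fat SAT (9.02, SD 1.58) and wild-type GAT (6.6, SD 0.878), and again each neighbouring pair overlapped. Il20rb was at a mean of 13.6 (SD 2.45) in Azin2-/- GAT, 10.3 (SD 1.97) in 20-week high-fat SAT, 9.86 (SD 11.6) in low-fat SAT, 8.85 (SD 5.65) in Azin2-/- SAT, 5.76 (SD 0.98) in wild-type SAT and 5.71 (SD 0.704) in wild-type GAT. The SD of its low-fat group is larger than the mean because of low-fat replicate 1, and each neighbouring pair overlapped here too.

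**Figure D4:**
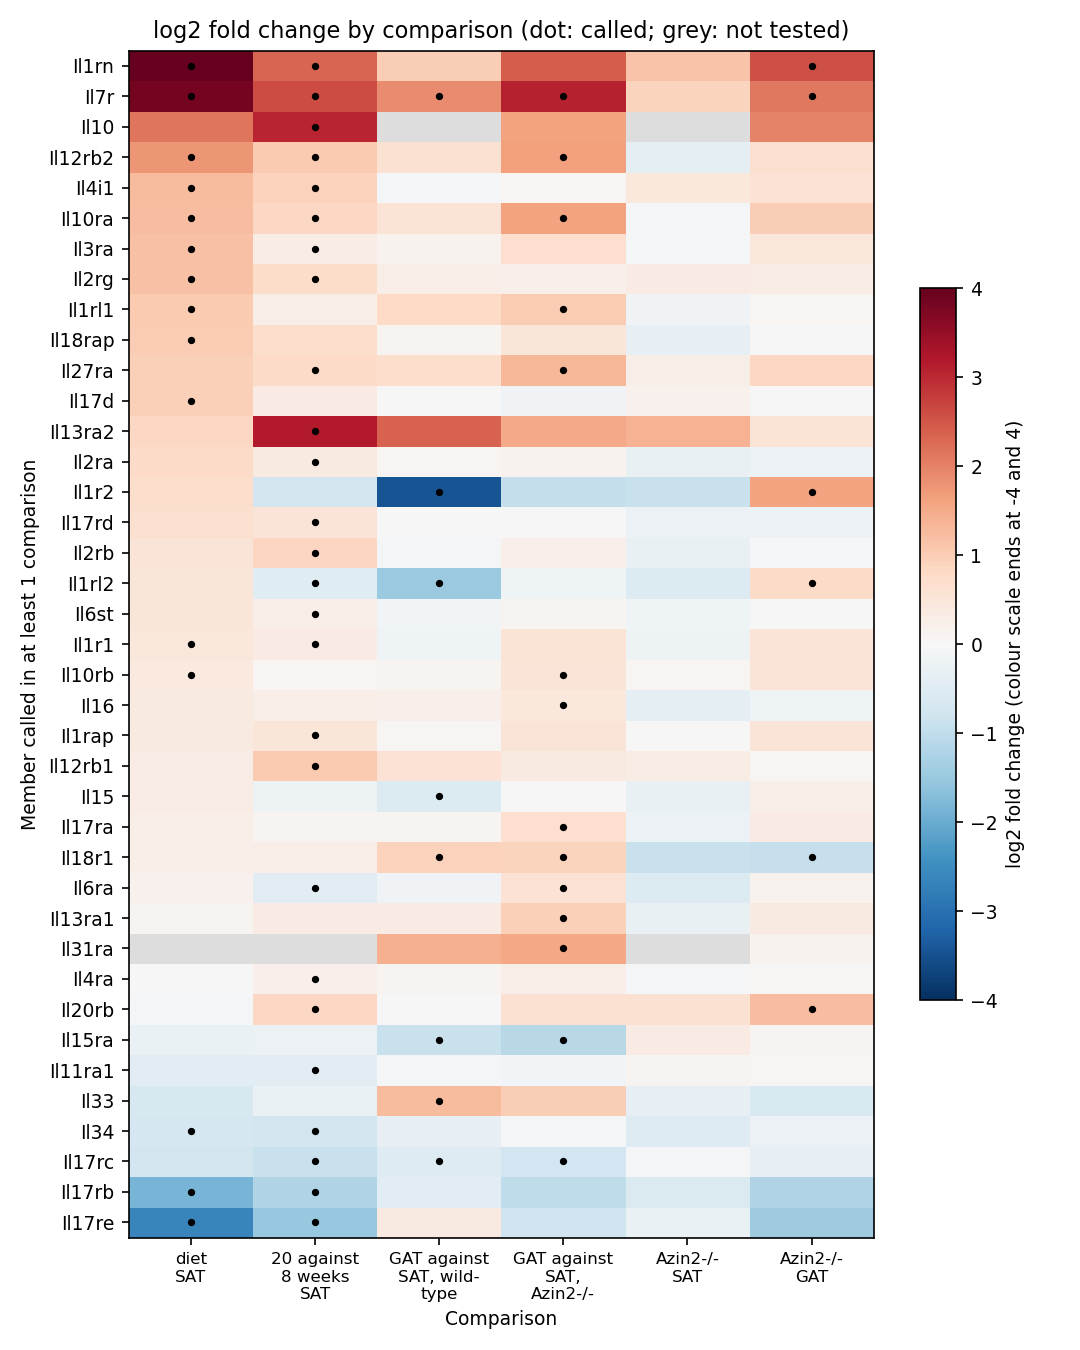
log2 fold change (colour) of the 39 members called in at least 1 comparison, in 6 comparisons, with a dot for each call and grey where a member was not tested. Il1rn and Il7r are red in all 6 columns, the SAT genotype column has no dot, and Il17rb and Il17re are the darkest blue of the diet column. The diet and duration columns share 20-week high-fat libraries, and the depot and genotype columns share groups of the 8-week experiment.

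Of the IL-1 receptor family, 6 genes stand side by side on the plus strand of chromosome 1 (GRCm38, bases 40074079 to 40551705, a stretch of 477.6 kb), in the order Il1r2, Il1r1, Il1rl2, Il1rl1, Il18r1 and Il18rap. Neighbours did not move alike. In wild-type mice, Il1r2 and Il1rl2 were lower in GAT than in SAT (-3.44 and -1.47), Il18r1 was higher (0.93), and Il1r1 (-0.17), Il1rl1 (0.79) and Il18rap (0.12) were not called. In Azin2-/- GAT, Il1r2 and Il1rl2 were higher than in wild-type GAT (1.60 and 0.78) and Il18r1 was lower (-0.93), while Il1r1 (0.50, adjusted p = 0.0671), Il1rl1 (0.08) and Il18rap (0.02) were not called. Both comparisons use the wild-type GAT libraries, on opposite sides. With diet, the called genes of the stretch were Il1rl1 (1.05), Il18rap (1.00) and Il1r1 (0.44), none of which was called with genotype.

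**Figure D5:**
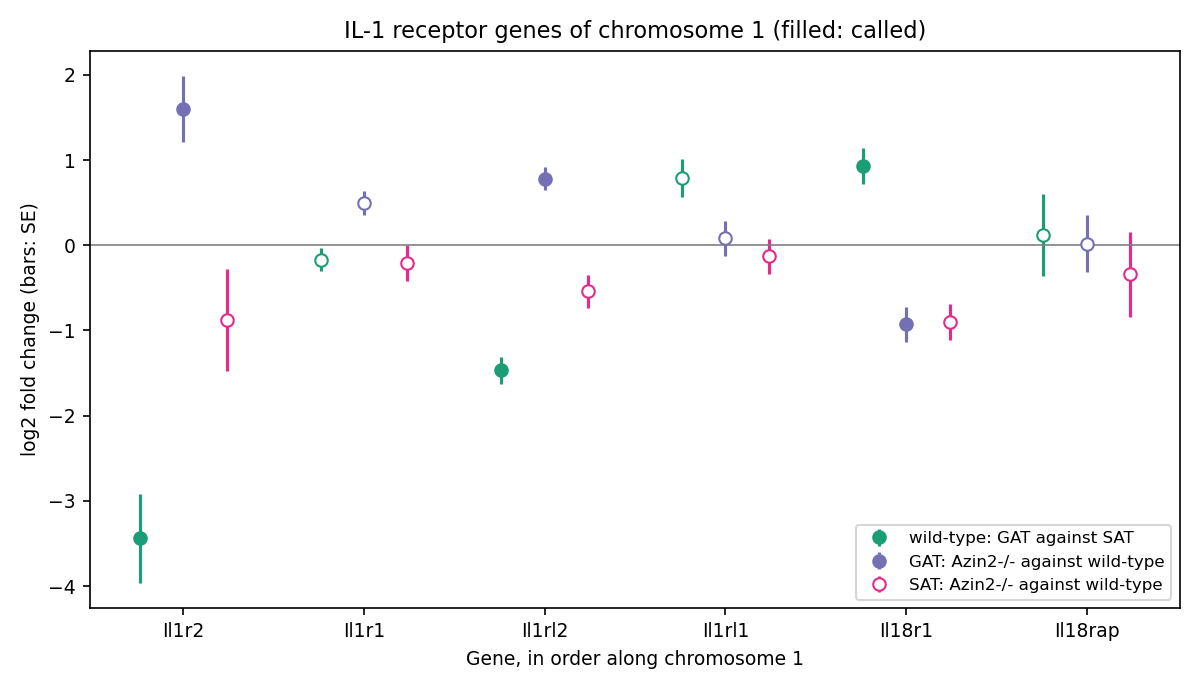
log2 fold change with SE (bars) of the 6 IL-1 receptor genes in their order along chromosome 1, for wild-type GAT against SAT (green), Azin2-/- against wild-type in GAT (purple) and in SAT (pink); filled points were called. Il1r2 and Il1rl2 are below 0 between depots and above 0 with genotype in GAT, and Il18r1 is the reverse.

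The members' partners that do not carry the Il symbol were read from 6 lists. Of 17 tested receptors and ligands related to the members, 5 rose and 1 fell with diet, beside 21.2% of all genes (list median 0.69, all genes -0.09). Without low-fat replicate 1, 11 rose and 2 fell, beside 47.0% of all genes (list median 0.70, all genes -0.017). The rises were Csf1r (1.53), the receptor of IL-34 and CSF1, Csf2rb2 (1.40) and Csf2ra (1.22), chains of the IL-3 and GM-CSF receptors, Lif (0.88), a ligand that uses Il6st, and Ebi3 (0.73), a subunit of IL-27 and IL-35, and Ctf1, another ligand of the Il6st group, fell by 2.14. In Azin2-/- GAT, 3 of 17 rose, beside 6.77% of all genes (median 0.48, all genes -0.035): Lif (1.58), Csf1r (1.17) and Csf2rb2 (1.11). With duration 8 rose and 1 fell (39.0% of all genes), between the depots of Azin2-/- mice 4 rose and 1 fell (15.2%), and between those of wild-type mice only Csf2ra (0.90) rose (4.33%). Csf1r is also one of the 8 macrophage markers.

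Of 16 JAK, STAT and SOCS genes, 3 rose with diet, Jak1 (0.47), Jak2 (0.21) and the phosphatase Ptpn6 (1.10), none was called in Azin2-/- GAT by edgeR, and the list medians were 0.19 in both. Of all genes tested, 10.8% rose and 10.4% fell with diet, or 23.5% and 23.5% without low-fat replicate 1. In Azin2-/- GAT, 5.45% of all genes rose and 1.32% fell. Without low-fat replicate 1, 5 of the 16 rose with diet, now also Stat3 and Socs3, and Stat5a and Stat5b fell (median 0.14). Of 12 adaptors of IL-1 and IL-17 receptors, none was called with diet (median -0.04), but without low-fat replicate 1 Irak2, Irak4 and Tab2 rose and Irak1 fell (median 0.08), and Irak4 (0.56) rose in Azin2-/- GAT. The 7 genes of the inflammasome, which cleaves the precursors of IL-1 beta and IL-18, differed in more of their members: Casp1 (1.72), Nlrc4 (1.82) and Aim2 (1.44) rose with diet (list median 0.67), and all 7 did without low-fat replicate 1 (median 1.29). In Azin2-/- GAT, Nlrc4 (1.42), Aim2 (1.08), Casp1 (1.07) and Pycard (0.97) rose (median 0.97). Il18 itself, at 2.10 to 4.86 normalised CPM in low-fat and 2.52 to 3.41 in high-fat SAT, was not called (-0.27, adjusted p = 0.437, or -0.43, adjusted p = 0.0659, without low-fat replicate 1).

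Of 7 tested targets of IL-1 and NF-kappaB, the neutrophil chemokines Cxcl2 (2.77) and Cxcl1 (1.73) rose with diet (list median 0.67), with Nfkbiz and Tnfaip3 added without low-fat replicate 1 (median 1.36), and none was called in Azin2-/- GAT (median 0.17). Of 7 targets of IL-4 and IL-13, Ccl22 (1.82) rose with diet (list median 0.49), as did Ccl22 and Chil3 without low-fat replicate 1 (median 0.23). Chil3 (2.17) rose in Azin2-/- GAT. After 20 against 8 weeks, Ccl22 was higher, and Retnla (-1.12), Ccl24 (-0.69) and Mgl2 (-0.65) were lower. The list median with duration was 0.74, and that of all genes -0.039. These counts stand beside 21.2% of all genes with diet, 47.0% without low-fat replicate 1, 6.77% in Azin2-/- GAT and 39.0% with duration. In the SAT genotype comparison, none of the 6 lists held a call.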

How the data were processed

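Per the labels' protocols, whole-tissue RNA was made into strand-specific libraries (TruSeq stranded Total RNA). The submitters' processing notes name cutadapt, STAR, HTSeq 0.6.1p1 and the builds GRCm38 and mm10, while other versions, strand setting, overlap mode and annotation release were not given in the sources used here. The deposited files hold raw read counts per gene for each library, made by the authors. Members were found through GENCODE M21.

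Counts were tested with edgeR 4.0.16 (quasi-likelihood test, TMM, filterByExpr with a minimum count of 10 and a minimum total of 15, robust fit, R 4.3.3), using the libraries of the groups compared (all 16 of the 8-week experiment for the interaction), and p-values were Benjamini-Hochberg adjusted over all tested genes and called below 0.05. The fits were tested on simulated data. DESeq2 1.42.0, other scalings, no filter, each library left out and title marks as a block were alternatives. Levels are normalised CPM with TMM factors over 24 libraries, and marker sums are plain CPM.

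Members and lists were chosen with earlier results of these data known. In each comparison the text names up to 10 called members per direction of smallest p, a fixed set (Il7r, Il20rb, Il1rl2, Il1b, Il1rn, Il33, Il1rl1, Il6, Il6st, Il4ra, Il10, Il15 and Il34), the 3 of smallest p where none was called, and the 8 of highest level per kilobase. Members outside this rule were named after their values were seen, as was the list of lipid-associated macrophage markers without Lpl. Exons of Il16 share 1202 bases with Stard5 and those of Il1rap 552 with Gm20319 on the other strand, and Il10rb shares 569 with Gm21970 and Il2rg 728 with Gm20489 on the same strand, so their reads may be divided or mixed.

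Deviations of same-numbered or same-marked libraries had correlations of 0.26, 0.00 and 0.06 with diet, 0.24, -0.03 and -0.05 between wild-type depots, and -0.06 and 0.03 between Azin2-/- depots. The 0.24, of the mark 9921, was the highest of all wild-type depot pairs. So few pairs cannot show whether libraries were paired. No block was used in the reported values, and the counts with a block are given beside them.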

Additional observations from a re-analysis of the deposited data

Results flagged for a closer look

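In groups of 4 or 5 libraries, the highest or lowest level of each of the members tested was set against the others by Dixon's ratio at its 95% critical value, which chance exceeds in about 1 of 20 groups. It was exceeded in 22 of 170 sets, 9 of them in the library labelled low-fat SAT replicate 1. There, Il20rb was at 27.3 normalised CPM (3.66 to 4.32 in the other 3), Il33 at 15.8 (1.42 to 2.95), Il13ra2 at 4.59 (0.301 to 0.745), Il13ra1 at 26.1 (6.99 to 8.69), Il17rb at 14.0 (3.20 to 4.02), Il4ra at 104.5 (46.9 to 54.7) and Il12rb1 at 1.04 (0.521 to 0.601). Its Il6st (149.7, against 310.5 to 331.1) and Il16 (8.16, against 28.4 to 31.9) were lowest. The same library had the highest epididymis sum and the lowest adipocyte sum (8161.6 CPM, against 26547.7 to 30129.6). Its mesothelium sum was 188.1 CPM, against 2.97 to 7.29 in the other low-fat libraries. The part of these cells was not tested.

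Wild-type GAT replicate 3, the other library with epididymis markers, stood apart in Il13ra2 (5.01, against 0.505 to 0.694) and Il17rb (8.50, against 1.18 to 1.57), both also high in low-fat replicate 1, and was lowest in Il2rg (4.10, against 6.77 to 6.94). Azin2-/- GAT replicate 1 was lowest in Il10ra (25.3, against 50.8 to 53.4).

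The remaining 9 were single values. In low-fat SAT, Il1rap was highest in replicate 5 (7.73, against 6.08 to 6.21) and Il10 in replicate 6 (0.422, against 0.0273 to 0.0831). In 20-week high-fat SAT, Il12rb2 (1.18, with the lowest at 0.760) and Il1rl1 (12.1, against 9.95 to 10.3) were highest in replicate 3 and Il34 in replicate 5 (23.7, against 18.2 to 18.5), while Il13ra1 was lowest in replicate 4 (11.5, against 15.2 to 15.4) and Il3ra in replicate 6 (26.7, against 29.1 to 29.3). In wild-type SAT, Il15 was lowest in replicate 1 (8.32, against 9.04 to 9.23) and Il6ra highest in replicate 4 (96.0, against 64.8 to 71.4).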

How the results depend on the processing

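Of the values recomputed under the alternatives, 1390 kept direction and side of the threshold, 204 lost and 27 gained a call, and 35 changed sign. Counts of called members (as reported, then changed) were 15 with diet, against 23 with all 24 libraries in 1 fit (31.9% of all genes called) and 7 to 32 with 1 library left out (10.3% to 47.0%). They were 0 with genotype in SAT, against 2 with DESeq2 (1.84%), and 6 with genotype in GAT, against 13 with DESeq2 (18.9%), 0 with no filter (0.0%) and 0 to 13 with 1 left out (0.0% to 15.7%). Between wild-type depots they were 8, against 4 with no filter (1.59%) and 2 to 10 with 1 left out (1.71% to 5.29%), and between Azin2-/- depots 14, against 9 with no filter (6.2%) and 0 to 18 with 1 left out (0.217% to 19.9%). With duration they were 26, against 16 with all 24 libraries (22.3%) and 21 to 29 with 1 left out (29.2% to 41.5%), and for the interaction 0, against 2 with DESeq2 (1.1%) and 0 to 1 with 1 left out (0.0% to 0.596%). Settings other than leaving out libraries are listed where the ratio to the reported count exceeded 1.5, or where only 1 of the 2 counts was 0. Lesser shifts are not all listed. With diet, DESeq2 gave 22 (27.2% of all genes called) and no filter 10 (7.58%). DESeq2 gave 12 between wild-type depots (9.79%) and 20 between Azin2-/- depots (22.6%). With no filter more genes are tested. Elsewhere the cause was not tested. Leaving out both muscle-rich libraries equals leaving out 1 replicate in the depot and duration comparisons.

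With the number or mark as a block, the counts were 27 with diet (32.7% of all genes), 0 between wild-type depots (0.0%) and 7 between Azin2-/- depots (5.34%). With diet this fit leaves out low-fat replicate 1 and high-fat replicate 4, which have no partner. Il20rb (1.27, adjusted p = 0.00451) and Il33 (0.97) were above 0 in it, as they were on the same libraries with no block (1.30 and 0.93). Il1rl2 was at 0.17 between Azin2-/- depots with the block.

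Changes of sign with 1 library left out are given as the reported log2 fold change and, in brackets, its range. With diet they were Il20rb at -0.07 (-0.33 to 1.34), Il33 at -0.63 (-0.93 to 0.86) and Il4ra at 0.00 (-0.12 to 0.41). With genotype in SAT they were Il1b at 0.02 (-0.23 to 0.44), Il33 at -0.33 (-0.81 to 0.06), Il1rl1 at -0.13 (-0.31 to 0.03) and Il4ra at -0.07 (-0.23 to 0.19). With genotype in GAT they were Il1b at 0.24 (-0.10 to 0.54), Il1rl1 at 0.08 (-0.07 to 0.30), Il6st at 0.02 (-0.09 to 0.08) and Il4ra at 0.06 (-0.01 to 0.15). Between depots they were Il6st at -0.10 (-0.15 to 0.02) and Il20rb at 0.00 (-0.08 to 0.09) in wild-type mice, and Il15 at 0.00 (-0.06 to 0.08), Il1rl2 at -0.16 (-0.28 to 0.04) and Il4ra at 0.25 (-0.01 to 0.41) in Azin2-/- mice. For the interaction they were Il1b at 0.22 (-0.21 to 0.50), Il33 at -0.28 (-0.67 to 0.21), Il4ra at 0.13 (-0.12 to 0.29) and Il10 at 0.29 (-0.25 to 1.22). Without both muscle-rich libraries, Il1b (-0.16) and Il4ra (0.21) turned with genotype in SAT, and Il33 (0.30), Il4ra (-0.14) and Il10 (-0.14) in the interaction. Il1rn, Il7r and Il1r2 changed sign in none of the comparisons in which they were called.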

Other observations

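A few ligands and decoys of low level stood out in single libraries. Il12a, the subunit that IL-12 shares with IL-35, was at 1.74 normalised CPM in wild-type SAT replicate 3 and 3.41 in Azin2-/- SAT replicate 2, the libraries of highest skeletal muscle sum, and at no more than 0.475 in any other. Il22ra2, the soluble decoy of IL-22, was at 4.85 in wild-type GAT replicate 3 and at no more than 0.706 in any other library.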
